A study of Mus musculus with 3 samples.

Results

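Genes of cholesterol synthesis, uptake and efflux were described on chromatin of bone marrow-derived macrophages. The list holds 33 named genes, and all 33 were found by gene identifier in the tables of every library, out of 55536 annotated genes. It comprises 17 enzymes of synthesis, 4 genes of the SREBP system, 3 genes of the LXR system, 5 genes of efflux and lipoprotein handling, and 4 genes of esterification and trafficking. Uptake is represented by Mylip, Lpl and Scarb1. The macrophages were primary cells of C57BL/6J mice, grown from marrow and exposed to Lipid A at 100 ng/ml over 40 min. Lipid A is the membrane anchor of bacterial lipopolysaccharide and a ligand of Toll-like receptor 4. RNA of the chromatin fraction, which holds nascent and retained transcripts, was sequenced after removal of ribosomal RNA in 1 group of 3 biological replicates. The RNA amount that went into library preparation was 1 µg for replicate 1, 250 ng for replicate 2 and 500 ng for replicate 3. Where 3 values follow a gene below, they belong to replicates 1, 2 and 3 in that order. Their biosamples are separate but cite the same donor entry, so the p-values below rest on variation between these libraries, which may be technical. In the limma tests of level below, each gene's variance was drawn toward a trend over all genes tested. The standard errors and p-values of those tests therefore do not measure that gene's own spread alone. Sex and age were not recorded. Unstimulated cells were not analysed here, so nothing below is a response to Lipid A: levels were compared between genes of the same libraries and between the replicates.

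The libraries held 12699813, 18280033 and 18087091 expected counts in replicates 1, 2 and 3. The labelled cell type was checked against marker genes. Of 8 macrophage markers 7 stood higher than a typical expressed gene and 1 was not called, with Csf1r, the receptor of the growth factor CSF1, at a mean TPM of 203 (transcript abundance scaled for length and library). All 21 markers of 8 other cell types, among them hepatocytes and adipocytes, which make and store much of the body's lipid, were called lower, and 8 of them were listed at 0 in every library of the alignment-based table. Their summed TPM was 1.64, 3.38 and 1.91 in replicates 1, 2 and 3. In the authors' other table, made without alignment, the T cell marker Cd3d, one of these 8, had 17.4, 14.1 and 19.3 TPM. In every library this was above the macrophage marker Fcgr1, at 9.42, 6.08 and 3.79. The endothelial marker Pecam1 had 7.68, 4.45 and 8.04 there, above Fcgr1 only in replicate 3. Cd3e, the other T cell marker, averaged 0.028.

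Cells make cholesterol from acetyl-CoA through mevalonate, farnesyl diphosphate, squalene and lanosterol. When sterol in the endoplasmic reticulum is low, Scap carries the SREBP precursors to the Golgi, where they are cleaved and released to activate the genes of synthesis and uptake, and Insig proteins hold them back when sterol is high. The liver X receptors (LXR) sense oxysterols and activate genes that export cholesterol, which macrophages use to unload the lipid they take up from lipoproteins and dying cells. Surplus cholesterol is stored as ester in droplets.

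Levels were placed on 1 scale by setting each gene against the reference gene, defined in each library as the median over 8765 nuclear genes that code for protein and were expressed, which was 7.56, 6.64 and 6.56 TPM. A gene was called higher or lower where its level lay more than 2-fold from the reference gene (limma's treat method on log2(TPM + 0.1), adjusted p under 0.05 after Benjamini-Hochberg adjustment over 18407 genes). The 33 genes divided by role. Of the 17 enzymes 0 were higher, 10 were lower and 7 were not called, with a median of the mean TPM of 1.79. Of the 16 other genes 8 were higher, 0 were lower and 8 were not called, with a median of 20.2. Over the whole list 8 were higher and 10 lower, or 24.2% and 30.3%, where 15.1% and 52.5% of all genes tested were higher and lower. Among protein-coding genes alone these shares were 19.5% and 44.5%. The share of the enzymes called lower was 58.8%. This was near that of all genes tested and further above that of protein-coding genes, which the enzyme genes are. The split moved with the table and the reference: in the alignment-free table of the same reads 2 enzymes (Hmgcs1 and Msmo1) were higher and 7 lower, and 13 other members were higher and 0 lower, while with a reference drawn from genes averaging 5 TPM or more 0 enzymes were higher and 14 lower, and 3 other members were higher and 1 (Stard4) lower. With a reference drawn from genes averaging 0.1 TPM or more, 2 enzymes were higher and 5 lower, and 13 other members were higher and 0 lower. The median difference from the reference gene on the log2 scale was -1.91 for the enzymes, 1.47 for the other members and -1.74 for all genes tested. Since the list was chosen with earlier results of these data known, these counts describe the list and were not tested. In a bulk library a gene carried by fewer cells and a gene with less RNA per cell cannot be told apart.

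**Figure D1:**
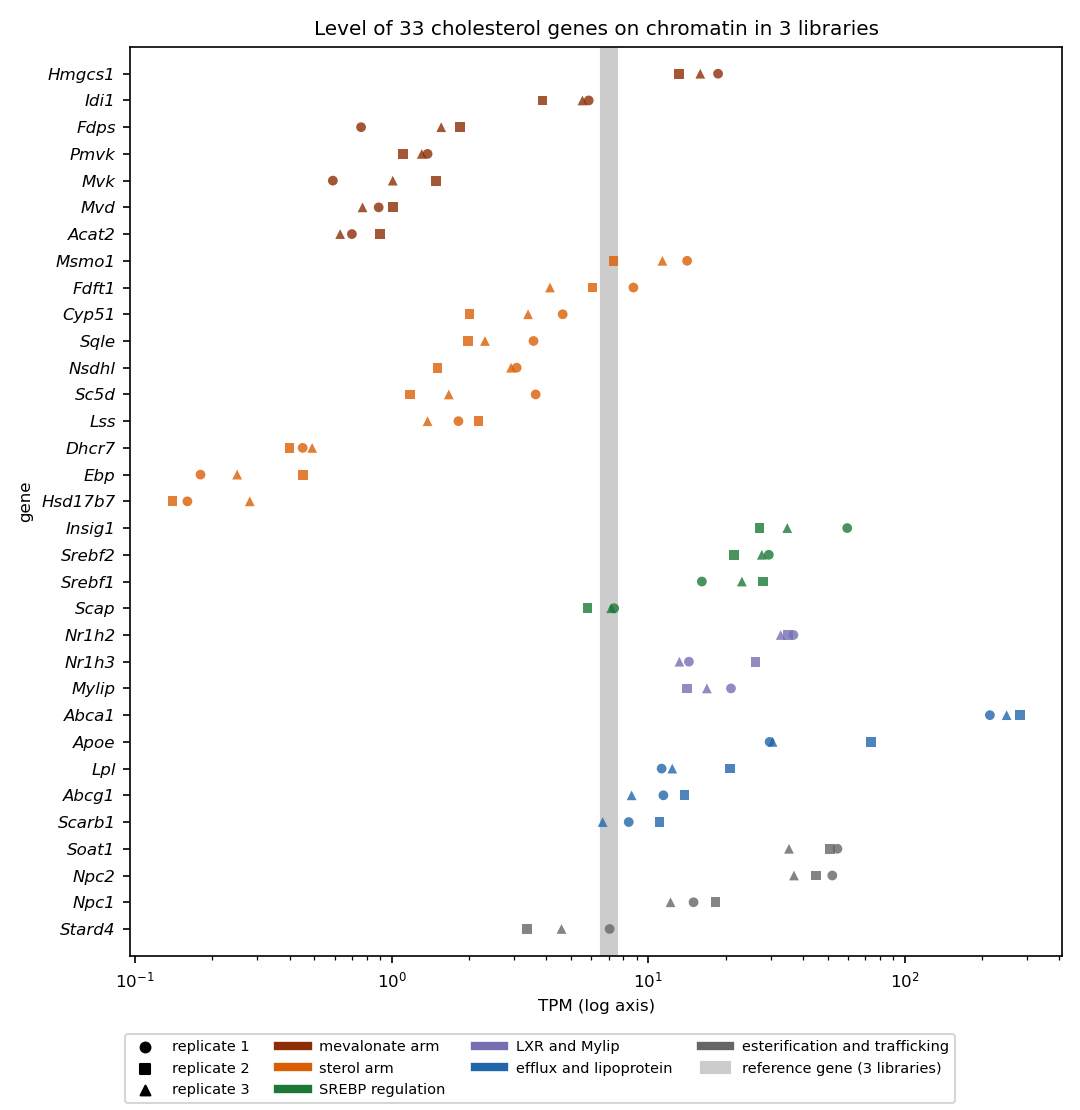
TPM of each of the 33 genes (log axis) in the 3 libraries, 1 symbol per replicate, coloured by role and sorted within each role by mean level; the grey band spans the reference gene's TPM in the 3 libraries. Most enzymes lie left of the band, while Abca1 stands alone on the right at 214 to 280 TPM.

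The mevalonate arm, which runs from acetyl-CoA to farnesyl diphosphate, had 0 genes called higher, 5 called lower and 2 (Hmgcs1 and Idi1) not called. Hmgcs1, which encodes the cytosolic HMG-CoA synthase, reached 18.7, 13.2 and 15.9 TPM, the highest mean of all 17 enzymes. Each library was above the reference gene, yet the difference of 1.18 ± 0.13 (SE) log2 units was not called (limma treat, adjusted p = 0.15). Idi1, the isomerase that makes the reactive isoprene unit, reached 5.86, 3.87 and 5.54 TPM, below the reference gene in every library, and was not called. The remaining 5 genes were all lower. Acat2, the cytosolic thiolase that condenses acetyl-CoA, averaged 0.743 ± 0.140 TPM (SD, n = 3), the decarboxylase gene Mvd 0.890 ± 0.120, and the kinase genes Mvk and Pmvk 1.03 ± 0.45 and 1.27 ± 0.14. Fdps, which encodes farnesyl diphosphate synthase, averaged 1.39 ± 0.56 TPM, with 0.76 in replicate 1 and 1.84 and 1.56 in replicates 2 and 3. These 5 levels rested on 15 to 42 expected counts per library, and differences among them were not tested.

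Hmgcs1 (ENSMUSG00000093930.2) spans bases 119690379 to 119708260 of chromosome 13 on the plus strand of mm10. Promoter windows of 300 bases, 250 before and 50 after each annotated start, were available from RefSeq (GRCm38.p6) for 25 of the 33 genes. They were searched on both strands for the letters TCACNCCAC, a form of the sterol regulatory element bound by SREBP, and for CCAAT, the box bound by NF-Y. Of the 32851 windows of all genes 1.24% held the SREBP letters, and of the 25 list genes only Hmgcs1 did, with the match beginning 137 bases before the start. CCAAT occurred in 37.4% of all windows, in 13 of 14 enzyme genes and in 6 of 11 other members; some genes have several windows, and a match of so few letters is a description, not a site. The Hmgcs1 window (chr13:119690101-119690400, plus strand) is shown because it carries both motifs and belongs to the enzyme gene with the highest level; capitals mark the SREBP letters and the CCAAT boxes, which all lie on the minus strand and read ATTGG here:
Hmgcs1 promoter: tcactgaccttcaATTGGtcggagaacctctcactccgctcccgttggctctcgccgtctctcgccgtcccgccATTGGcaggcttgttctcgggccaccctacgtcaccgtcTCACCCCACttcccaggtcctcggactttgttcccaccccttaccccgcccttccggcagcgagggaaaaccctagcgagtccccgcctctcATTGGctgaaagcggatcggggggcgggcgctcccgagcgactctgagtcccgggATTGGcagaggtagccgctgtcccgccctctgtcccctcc

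The sterol arm, from squalene to cholesterol, had a wider range, and no member was higher than the reference gene. Msmo1, the oxygenase that starts removal of methyl groups from the sterol ring, reached 14.2, 7.32 and 11.3 TPM, above the reference gene in every library but not called. Fdft1, which encodes squalene synthase at the branch into sterols, had 8.75, 6.06 and 4.14, on both sides of the reference gene. Cyp51, the lanosterol demethylase gene, had 4.64, 2.01 and 3.40, and Sqle, the squalene epoxidase gene, 3.57, 1.99 and 2.31. Neither passed the test, and neither did Nsdhl, a sterol dehydrogenase gene on the X chromosome, at 2.50 ± 0.86 TPM (SD, n = 3). Lower were Sc5d, a sterol desaturase gene (2.16 ± 1.30), Lss, the lanosterol synthase gene (1.79 ± 0.40), Dhcr7, a reductase gene of the final steps (0.447 ± 0.045), Ebp, a sterol isomerase gene (0.293 ± 0.140), and Hsd17b7, a keto-reductase gene (0.193 ± 0.076). Hsd17b7 was the lowest of the 33, with a log2 difference of -4.61 ± 0.33 (SE) (limma treat, adjusted p = 0.0003). The Sc5d call was lost without replicate 2 (limma treat, adjusted p = 0.12), without replicate 3 (0.085), with a pseudocount of 1 (0.082) and in the alignment-free table (0.37). Lss and Dhcr7 also lost theirs in the alignment-free table, with log2 differences of -0.56 and -0.75 (adjusted p = 1 each, limma treat), as did Mvd of the mevalonate arm (-1.22, adjusted p = 0.12). Ebp had 2, 7 and 6 expected counts, the only member under 10 in any library.

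Of the 4 genes of the SREBP system 3 were higher than the reference gene. Insig1, which encodes the sterol-dependent anchor of Scap and is itself an SREBP target, reached 59.6, 27.1 and 34.8 TPM. All 3 libraries were above the reference gene, by 2.46 ± 0.20 (SE) log2 units (limma treat, adjusted p = 0.0008), and replicate 1 was far above the others. Srebf2, whose product mainly drives cholesterol synthesis, had 29.5, 21.6 and 27.7 TPM, and Srebf1, whose product also drives fatty acid synthesis, 16.2, 27.9 and 23.2. Both were called higher (adjusted p = 0.00092 and 0.020 in the same limma treat fit), but the Srebf1 call was lost without replicate 2 (limma treat, adjusted p = 0.070) and without replicate 3 (0.063). Scap had 7.36, 5.79 and 7.17 TPM, within -0.04 ± 0.14 log2 units of the reference gene.

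Insig1 (ENSMUSG00000045294.11) spans bases 28071363 to 28078662 of chromosome 5, also on the plus strand. Its RefSeq window (chr5:28071162-28071461, plus strand) is shown because Insig1 was the highest of the SREBP system; it held a CCAAT box on the minus strand and the E-box CACGTG, which 7.15% of all windows held. The SREBP letters searched were not in this window:
Insig1 promoter: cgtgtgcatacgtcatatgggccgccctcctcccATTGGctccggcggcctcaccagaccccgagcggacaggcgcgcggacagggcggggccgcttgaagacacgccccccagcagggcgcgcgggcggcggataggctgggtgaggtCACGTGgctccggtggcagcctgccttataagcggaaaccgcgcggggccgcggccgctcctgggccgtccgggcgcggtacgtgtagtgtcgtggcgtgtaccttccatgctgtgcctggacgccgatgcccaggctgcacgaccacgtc

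Of the LXR genes, Nr1h2 (LXRβ) reached 36.8, 34.9 and 32.8 TPM and was called higher, at 2.32 ± 0.11 (SE) log2 units (limma treat, adjusted p = 0.0003). Nr1h3 (LXRα), the form best known from liver, fat and macrophages, had 14.4, 26.1 and 13.2, and was not called. Mylip, which encodes an LXR-driven ubiquitin ligase that limits lipoprotein uptake, averaged 17.3 ± 3.5 TPM (SD, n = 3), lowest at 14.1 in replicate 2, and was not called either. All 3 genes lay above the reference gene in every library.

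Abca1, the transporter that loads cholesterol onto apolipoprotein A-I, was by far the highest of the list. Its TPM was 214, 280 and 249, resting on 28790, 62595 and 52114 expected counts. Against the reference gene this was a log2 difference of 5.14 ± 0.16 (SE) (limma treat, adjusted p = 4e-05; above in 3 of 3 libraries), and lay above 98.7% of expressed protein-coding genes. No library of any other member reached the lowest Abca1 library. Apoe, the apolipoprotein that macrophages secrete, had 29.7, 73.7 and 30.5 TPM and was called higher at 2.54 ± 0.30 (SE) log2 units (adjusted p = 0.0031, same fit), with replicate 2 far above the other libraries. Abcg1, the transporter that exports cholesterol to mature HDL, had 11.4, 13.9 and 8.61 TPM. Lpl, the lipase that frees fatty acids from lipoproteins, had 11.3, 20.8 and 12.4, and Scarb1, the HDL receptor gene, 8.39, 11.1 and 6.64. These last 3 genes were above the reference gene in every library without being called.

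Abca1 (ENSMUSG00000015243.4) spans bases 53030787 to 53159895 of chromosome 4 on the minus strand of mm10. A pattern for an LXR direct repeat, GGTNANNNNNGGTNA on either strand, which was chosen with the published Abca1 element in mind, occurred in 0.718% of all windows. Among the 25 list genes it was found in Abca1 and Srebf1 and in none of the 14 enzyme genes. Both genes are textbook LXR targets. In Abca1 the match began 67 bases before the start and an E-box lay 147 bases before it. In Srebf1 (ENSMUSG00000020538.15, chromosome 11, 60199089 to 60222581, minus strand) it was found in the window of a start inside the gene, 182 bases before that start. Both windows are shown (Abca1, chr4:53159846-53160145, minus strand; Srebf1, chr11:60210422-60210721, minus strand), written along the gene's strand, with the repeat, the E-box and the CCAAT box in capitals. The repeat reads on the opposite strand and so begins with TGAC:
Abca1 promoter: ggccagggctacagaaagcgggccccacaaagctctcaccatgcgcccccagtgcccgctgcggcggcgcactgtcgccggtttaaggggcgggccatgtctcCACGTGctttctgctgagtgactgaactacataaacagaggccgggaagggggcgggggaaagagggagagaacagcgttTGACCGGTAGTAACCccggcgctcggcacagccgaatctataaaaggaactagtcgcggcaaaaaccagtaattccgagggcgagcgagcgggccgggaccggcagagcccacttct
Srebf1 promoter: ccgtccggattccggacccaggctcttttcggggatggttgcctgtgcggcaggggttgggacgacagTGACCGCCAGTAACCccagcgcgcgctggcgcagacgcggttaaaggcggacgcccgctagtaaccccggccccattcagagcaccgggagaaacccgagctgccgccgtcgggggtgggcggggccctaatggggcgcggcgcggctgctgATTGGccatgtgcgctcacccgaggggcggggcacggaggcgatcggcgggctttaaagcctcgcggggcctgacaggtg

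Of the 4 genes of storage and transport 2 were higher than the reference gene. Soat1, which esterifies cholesterol for droplets, had 54.6, 51.2 and 35.3 TPM, and Npc2, the lysosomal sterol carrier, 52.1, 45.1 and 37.0. Both were called higher, by 2.73 ± 0.15 and 2.66 ± 0.12 (SE) log2 units (limma treat, adjusted p = 0.0003 and 0.00024). Npc1, the lysosomal membrane protein that receives sterol from Npc2, had 15.0, 18.3 and 12.2, above the reference gene in every library but not called. Stard4, a cytosolic sterol carrier driven by SREBP, had 7.07, 3.36 and 4.59, below the reference gene in every library and not called. Ordered by mean TPM, the list ran from Abca1 through Soat1, Npc2, Apoe, Insig1 and Nr1h2 down to Dhcr7, Ebp and Hsd17b7. Only 3 of the 32 neighbouring pairs did not overlap across libraries, namely Abca1 over Soat1, Nr1h2 over Srebf2 and Acat2 over Dhcr7. Ranges were compared here without pairing by library. Neighbours whose ranges overlap can still keep 1 order in every library, as Cyp51 over Sqle did, and most neighbours were not tested against each other. For 6 members (Acat2, Hmgcs1, Fdft1, Cyp51, Scap and Npc1) the expected counts were not whole, by more than 0.005, as happens where reads are shared between genes, and their levels are less certain.

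Pairs of genes with related roles were compared within each library as differences of log2(TPM + 0.1). Soat1 exceeded Soat2, the esterification gene of liver and intestine, by 7.26 ± 0.28 (SD, n = 3), with 54.6, 51.2 and 35.3 against 0.22, 0.20 and 0.19 TPM. Abca1 exceeded Abcg1 by 4.46 ± 0.33, Insig1 exceeded Insig2 by 3.48 ± 0.11 and Npc2 exceeded Npc1 by 1.56 ± 0.25. Nr1h3 lay below Nr1h2 by a difference of -1.02 ± 0.53. These 5 pairs kept 1 order in 3 of 3 libraries, and each reached p = 0.25, the smallest p the exact two-sided sign-flip permutation test allows with 3 libraries (0.30 after Benjamini-Hochberg adjustment over 6 pairs). Srebf2 exceeded Srebf1 in 2 of 3 libraries, by 0.25 ± 0.61 on average (exact sign-flip permutation p = 0.75, adjusted 0.75). Without replicate 1 that mean was -0.054, so the order of the SREBP genes was not resolved.

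Replicates were compared next. The SD of log2 CPM (counts scaled to library size by TMM) over the 3 libraries had a median of 0.34 over the 32 members that passed the count filter and 0.27 over all 12931 genes. Ebp did not pass. Of these members 15, 12 and 5 were lowest in replicates 1, 2 and 3, where 37.9%, 38.3% and 23.8% of all genes were, and 9, 17 and 6 were highest there, where 36.3%, 37.6% and 26.1% of all genes were. Over 2 libraries, the members' median SD was 0.292 without replicate 1, 0.126 without replicate 2 and 0.395 without replicate 3. The same medians over all genes were not computed, so whether this is particular to the members was not tested. All 5 genes of efflux and lipoprotein handling were highest in replicate 2, and in all 5 the replicate 2 counting interval (95%, exact Poisson) lay above those of both other libraries, which held for 11.9% of all genes. Apoe had 72.5 CPM in replicate 2, with 24.1 in replicate 1 and 29.6 in replicate 3. Abca1 had 3538 CPM in replicate 2, with 2130 and 3041 in replicates 1 and 3, and Lpl had 69.0 CPM there, with 34.0 and 44.8. Nr1h3, Nr1h2, Srebf1, Soat1 and Npc1 were also above both other libraries, which makes 10 of 32 members. Nr1h3 had 47.1 CPM in replicate 2, with 22.6 and 23.3 in replicates 1 and 3.

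Some genes of synthesis and their regulator Insig1 went the other way. Of 16 enzymes 9 were lowest in replicate 2, where 38.3% of all genes were lowest, and 6 had a replicate 2 interval below both others, where 12.2% of all genes did. These were Hmgcs1, Idi1, Cyp51, Msmo1, Nsdhl and Sc5d, and 0 enzymes had an interval above both. Insig1 had 42.8 CPM in replicate 2, with 89.5 and 65.2 in replicates 1 and 3. Sc5d had 4.58 CPM there, with 11.6 and 7.24, and Idi1 had 6.44, with 10.4 and 12.9. Stard4 and Mylip were below both other libraries as well, for 9 of 32 members in all. The enzymes were not uniform. Mvk, Mvd, Fdps, Lss, Acat2 and Dhcr7, or 6 of 16, were highest in replicate 2, where 37.6% of all genes were highest. Their intervals overlapped, at low counts except for Lss, which had 72, 138 and 102 expected counts. Fdft1 was lowest in replicate 3. On the log2(TPM + 0.1) scale against the reference gene, 8 of 17 enzymes were lowest in replicate 2. Intervals are narrow for abundant genes, so an abundant gene is more easily placed outside the others.

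On the CPM scale 6 of 8 macrophage markers were also highest in replicate 2, where 37.6% of all genes were, with a median deviation of 0.18 log2 units from the mean of the libraries, while that of the 5 efflux and lipoprotein genes was 0.48. Scaled per length, the summed TPM of the 8 markers was 659, 595 and 507. These sums were not set against the reference gene, which was itself highest in replicate 1 (7.56, 6.64 and 6.56 TPM). Their order therefore does not show in which library the markers were highest. In alignment-based TPM all 5 efflux and lipoprotein genes were highest in replicate 2 too. In alignment-free TPM only Apoe was, at 30.8, 52.6 and 28.1. Abca1 (325, 304 and 314) and Scarb1 (34.4, 18.6 and 19.5) were lowest in replicate 2 there. Abcg1 (23.0, 21.9 and 17.4) and Lpl (27.5, 23.9 and 22.3) were highest in replicate 1. These TPM were not set against the reference gene either. RNA input was least in replicate 2. The part of marker level, RNA input and library preparation in these differences was not tested, and with 1 library per RNA amount, input and replicate cannot be told apart. The joint view of efflux, LXR, esterification and trafficking genes, of which 9 of 12 were above both other libraries in replicate 2, was chosen after the values were seen.

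**Figure D2:**
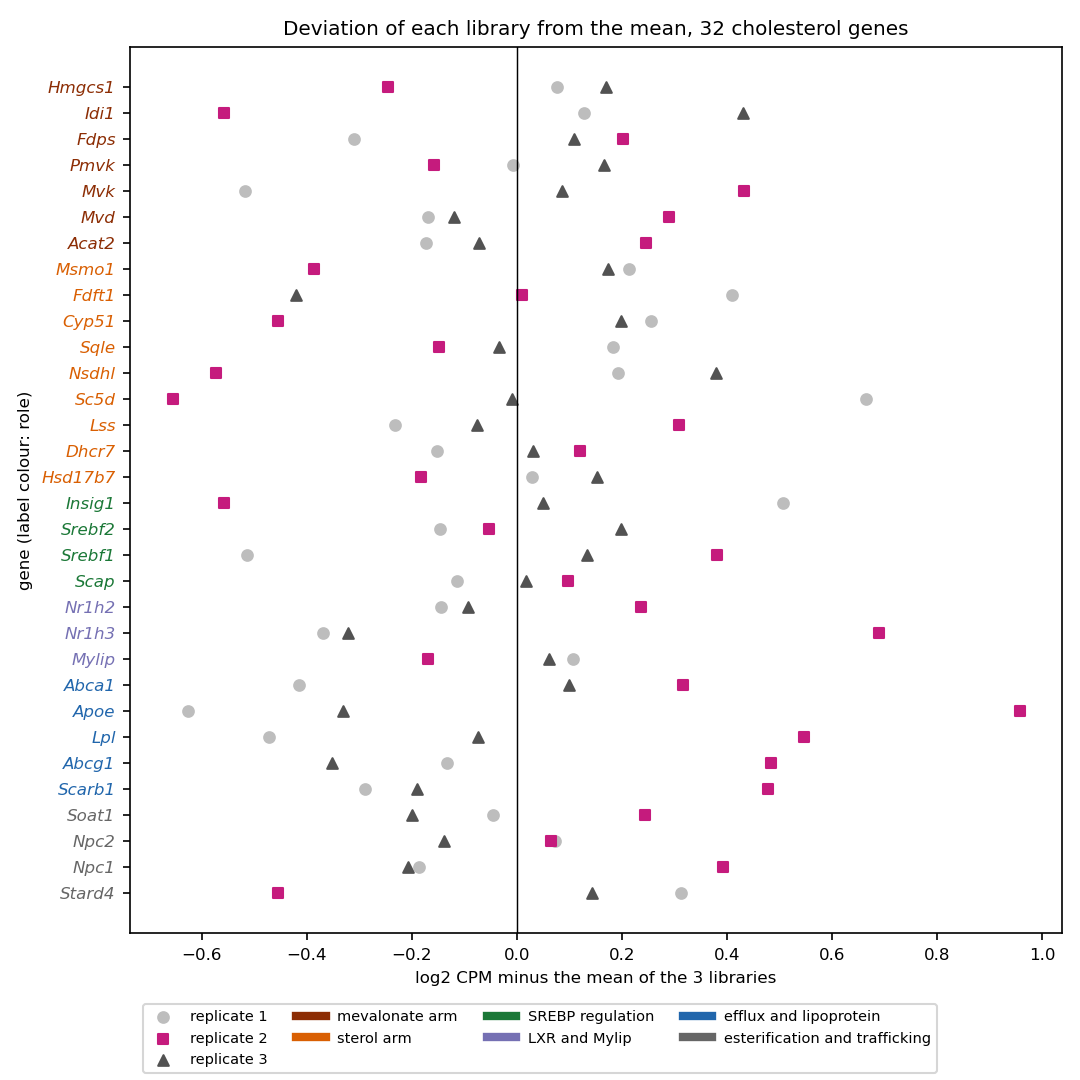
Deviation of each library from the mean of the 3 libraries (log2 CPM) for the 32 members that passed the count filter, 1 symbol per replicate, gene labels coloured by role. Replicate 2 lies on the right for all 5 efflux and lipoprotein genes, with Apoe farthest at 0.96, and on the left for Hmgcs1, Idi1, Msmo1, Cyp51, Nsdhl, Sc5d, Insig1 and Stard4.

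Chromatin RNA includes transcripts that are not fully spliced, and the annotation lists some isoforms that keep an intron. The share of a gene's transcript TPM in such isoforms could be given for 23 members, those with a mean TPM from 1 upward and both a coding and an intron-retaining isoform. The members' median share was 46.6%, 29.5% and 34.8% in replicates 1, 2 and 3, and the median over all 5824 such genes was 42.9%, 38.8% and 38.8%. In 5 of 23 members the share exceeded 50% in every library, as in 25.3% of all genes. Npc2 had the highest share at 79.4% ± 2.8 (SD, n = 3), followed by Sqle at 73.9% ± 7.3, Scarb1 at 66.4% ± 6.2, Lss at 64.9% ± 5.3 and Nr1h3 at 60.1% ± 1.5. Insig1 stood at 54.9% ± 7.6 and Srebf2 at 54.5% ± 10.3, with at least 1 library under 50% each. Of the Npc2 TPM, 9.24 ± 2.20 belonged to the protein-coding isoform Npc2-201, and most of the rest to its intron-retaining isoforms.

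Abca1 had 97.4% ± 1.0 (SD, n = 3) of its TPM in the protein-coding isoform Abca1-201, which has 50 exons and 10262 bases. Its other isoform is annotated as a processed transcript, and none is annotated as retaining an intron. Unspliced Abca1 RNA thus has no isoform of its own in the tables. High protein-coding shares were not particular to Abca1. Nsdhl had 97.1% ± 5.0 and Fdft1 91.8% ± 7.6, although an intron-retaining isoform is annotated for both. Mylip, Sc5d and Pmvk have no annotated isoform of another type, so their share of 100% in protein-coding isoforms was fixed by the annotation. Srebf1 had 66.5% ± 2.9 in short isoforms annotated as processed transcripts and 33.5% ± 2.9 in protein-coding ones. For Lpl, 37.6% ± 10.1 fell to an isoform annotated for nonsense-mediated decay, with 49.1% in replicate 2 and 33.6% and 30.1% in replicates 1 and 3. In the alignment-free table the Lpl share was 19.3%, and retained-intron shares also moved. Srebf2 had 32.8% there, Lpl 45.9% (22.1% in the alignment-based table), Stard4 65.5% (23.9%) and Mvk 59.9% (23.2%). Nr1h3 averaged 48.2% there, with 43.3% in replicate 3, so it did not exceed 50% in every library of that table. Isoforms share most of their exons, so these shares depend on how the reads were divided, and the counting of unspliced RNA was not separate.

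**Figure D3:**
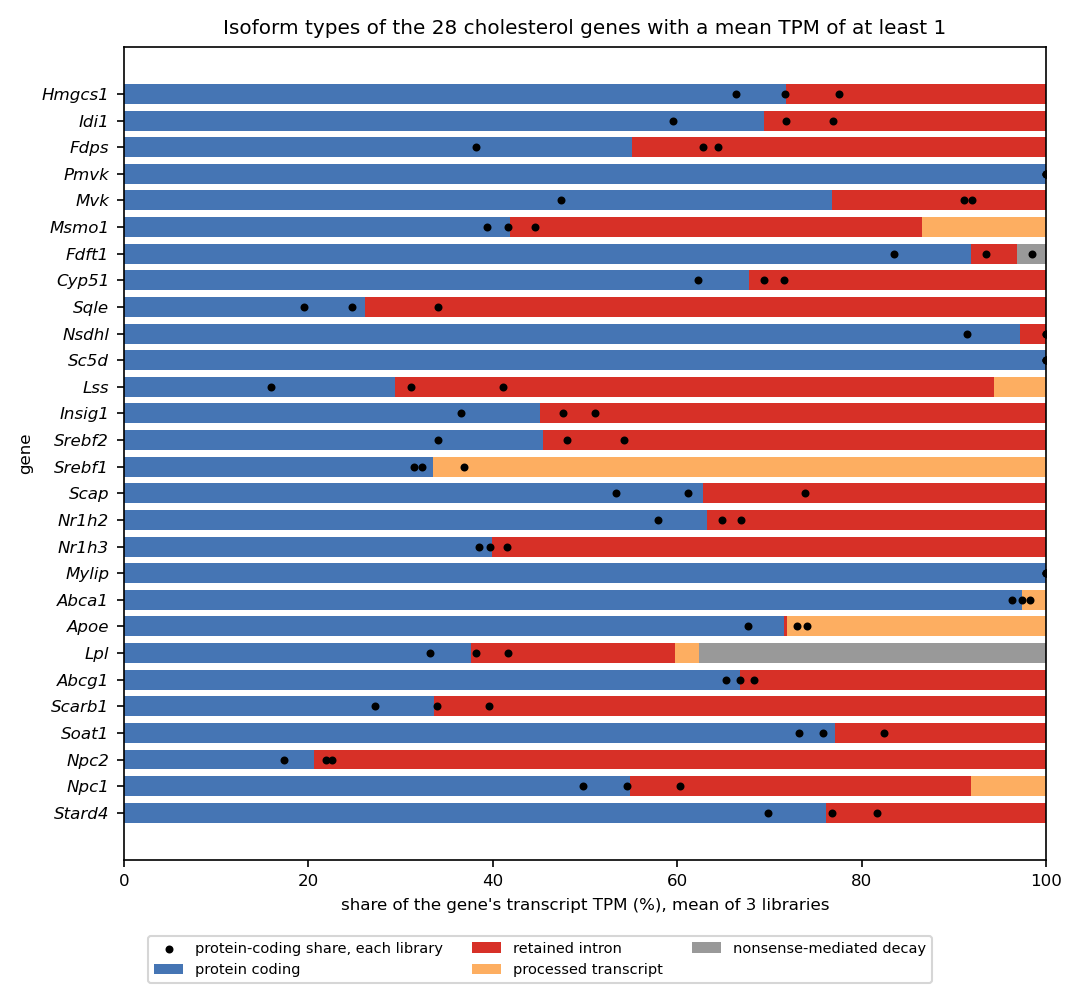
Share of each gene's transcript TPM by annotated isoform type (bars, mean of 3 libraries; points, protein-coding share of each library) for the 28 members that averaged 1 TPM or more, grouped by role. Abca1 and Nsdhl are nearly wholly protein coding, while Npc2 is mostly retained intron and Srebf1 mostly processed transcript. Mylip, Sc5d and Pmvk are wholly protein coding because no other isoform type is annotated for them.

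The same reads were also quantified by the authors without alignment, and TPM in that table was set against the alignment-based one. Among 31 members that averaged 1 TPM or more in either table, 3 were over 2-fold higher in the alignment-free table in every library, or 9.68%, where 42.9% of all genes and 29.4% of protein-coding genes were, and 0 were over 2-fold lower, where 0.582% of all genes were. The median fold was 1.58 for members, 2.20 for all genes and 1.60 for protein-coding genes. Folds between tables are averages over libraries on the log2(TPM + 0.1) scale, which understates them for low genes. Dhcr7 differed most, at 7.89-fold the alignment-based value, nearly all of it in the short processed transcript Dhcr7-206 (4.05 ± 1.66 TPM in the alignment-free table and 0.03 ± 0.06 in the alignment-based one, SD, n = 3). Stard4 was 3.40-fold and Mvd 3.16-fold higher. In Stard4 the excess lay in the retained-intron isoform Stard4-204, at 11.1 ± 3.3 and 1.25 ± 0.76 TPM in these tables. Scarb1 was 2.71-fold higher on average but less than 2-fold in replicate 2, with the excess in the retained-intron isoform Scarb1-207, at 14.8 ± 6.7 and 1.68 ± 0.19 TPM. Without replicate 2 the count of members was 6. The tables came closest in replicate 2, where the members' median log2 difference was 0.20, while it was 0.92 in replicate 1 and 0.62 in replicate 3. This order was not particular to the members. The median was 1.25, 0.83 and 1.07 over all genes in replicates 1, 2 and 3, and 0.86, 0.45 and 0.70 over protein-coding genes. Abca1 had the highest mean of the list in both tables.

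**Figure D4:**
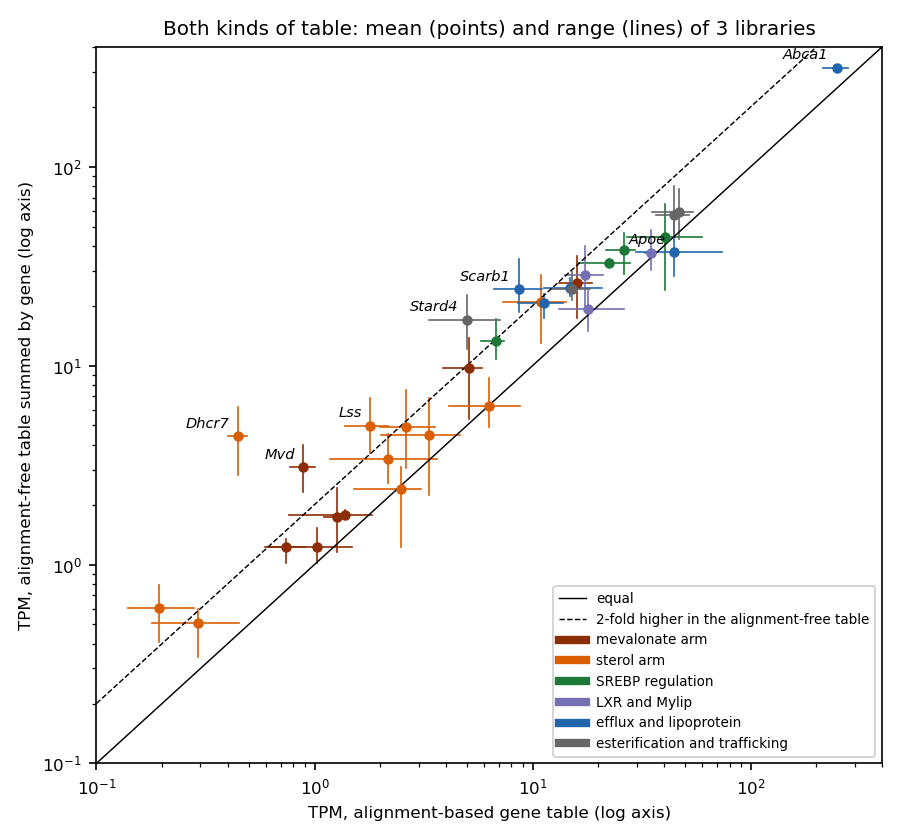
Alignment-free TPM against alignment-based TPM (log axes) for the 33 members, points at the mean of 3 libraries and lines over their range, coloured by role; the solid line marks equal values and the dashed line 2-fold. Dhcr7, Mvd, Stard4, Hsd17b7, Lss and Scarb1 lie above the dashed line by their means, all but Lss and Scarb1 in every library. Hsd17b7 averaged under 1 TPM and was not among the members counted above. Abca1 is at the top right in both tables.

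Related genes outside the list were counted in the same way. Of 46 such genes measured, 9 were higher than the reference gene, 20 were lower and 17 were not called, or 19.6% higher and 43.5% lower, close to the 19.5% and 44.5% of all protein-coding genes. Counts within the groups that follow are small and are given as a description. Of 6 uptake genes 3 were higher, led by the endocytic receptor gene Lrp1 with 135, 287 and 203 TPM. Of 5 other genes of synthesis 0 were higher and 2 lower, with Lbr, a sterol reductase of the nuclear envelope, the highest at 3.83 ± 0.68 TPM (SD, n = 3). Of 9 fatty acid genes driven by SREBP1, 1 was higher (Acaca, acetyl-CoA carboxylase, 21.5 ± 1.5 TPM) and 5 were lower. Of 11 efflux and LXR genes 3 were higher and 5 lower, led by the corepressor gene Ncor1 at 134 ± 6. Of 9 genes of oxysterol and ester metabolism 2 were higher and 5 lower, led by Cyp27a1, a sterol hydroxylase gene, at 90.2 ± 2.5. Ch25h, the hydroxylase that makes an antiviral oxysterol, had 0.25, 0.04 and 0 TPM on 4, 1 and 0 expected counts, and was lower by the same test, with a log2 difference of -5.37 ± 0.46 (SE) (limma treat, adjusted p = 0.00036). None of the 6 remaining regulators was higher, and Mbtps1, the protease gene that makes the first cut in SREBP, was the highest of them at 15.2 ± 1.6 TPM. Between libraries, 4 of 5 uptake genes, 5 of 6 efflux and LXR genes, 5 of 5 oxysterol and ester genes, 4 of 8 fatty acid genes, 3 of 6 regulators and 1 of 4 synthesis genes were highest in replicate 2, where 37.6% of all genes were. Lowest in replicate 2 were 0 of the genes of uptake, of efflux and LXR and of oxysterol and ester metabolism, 2 of 8 fatty acid genes, 3 of 6 regulators and 1 of 4 synthesis genes, where 38.3% of all genes were.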

How the data were processed

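Chromatin-fraction RNA was measured in 3 libraries of 1 group, grouped by the labels. Per the deposited notes, values refer to mm10 and annotation M21; which programs made them is not given in the sources used here. Expected counts, TPM and FPKM deposited by the authors come from transcriptome alignments, and estimated counts and TPM deposited by the authors in another transcript table come directly from the reads. Some of the authors' counts are not whole, and these were rounded here before count-based steps. TPM and FPKM were scaled by the authors for effective length. Strand treatment is not stated, so overlapping or antisense genes are uncertain. Rows for tRNA and spike-ins, 0.2% to 1.26% of counts, were left out of tests.

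Members, gene lists and comparisons were chosen with earlier results of these data known. All members are named; of related genes, Ch25h and the highest of each group reported are, and some related genes are not reported here. Levels were log2(TPM + 0.1) minus the library median of the reference genes (nuclear, coding, averaging 1 TPM or more), tested with limma 3.58.1 treat (2-fold band, two-sided, trended variance) over 18407 genes, those listed and those averaging 0.1 TPM or more. A pseudocount understates differences of low genes. Spread used edgeR 4.0.16 (TMM, filterByExpr minimum count 10, prior count 2). Scripts were tested on simulated data. Counting intervals are exact at 95% and include no other error than counting; a gene at 0 may hold up to 3 counts, or 2.36e-05%, 1.64e-05% and 1.66e-05% of replicates 1, 2 and 3. Identifiers were matched to GENCODE M21, and promoters to RefSeq GRCm38.p6. Alternatives were pseudocounts, filters, bands, reference sets, tables, scalings and leaving out each library.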

Additional observations from a re-analysis of the deposited data

How the results depend on the processing

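No paired analysis was possible because the series holds 1 group. Members called higher, 8 as reported, numbered 15 with no band, 15 with reference genes from a mean TPM of 0.1, 15 in the alignment-free table, 4 with a 4-fold band and 3 with reference genes from a mean TPM of 5. Members called lower, 10 as reported, numbered 5 with a filter at a mean TPM of 1 (which leaves 28 members tested), 5 with a 4-fold band and 5 with reference genes from 0.1, but 15 with reference genes from 5 and 14 with no band. Leaving out 1 library gave 7 to 8 higher and 9 to 11 lower, a median SD of 0.126 to 0.395 and 3 to 6 members over 2-fold higher in the alignment-free table, which numbered 9 at 1.5-fold. Srebf2 minus Srebf1 ranged from -0.054 to 0.56 when 1 library was left out. Signs turned, in log2 units, for genes that were not called: with reference genes from 5, Hmgcs1 (-0.0095), Msmo1 (-0.59), Abcg1 (-0.51), Lpl (-0.15), Scarb1 (-0.89) and Npc1 (-0.087); with reference genes from 0.1, Idi1 (0.61), Fdft1 (0.87), Scap (1.03) and Stard4 (0.54); in the alignment-free table, Idi1 (0.34), Scap (0.85) and Stard4 (1.19); and Scap in FPKM (0.056). Leaving out 1 library gave Scap -0.098 to 0.050 and Fdft1 -0.42 to 0.058, where Scap was above 0 without replicate 2 and Fdft1 without replicate 3. Of 424 combinations of member and setting, 344 kept direction and call, 28 lost and 36 gained a call, and 16 changed sign. Bands and reference sets move the line of a call by construction; for the alignment-free table, the replicate left out and other settings the cause was not tested. Low members rest on few counts, 15 to 42 per library for 5 enzymes of the mevalonate arm, which widens their counting intervals.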
